A study of Mus musculus with 7 samples.

Results

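A set of 41 genes that copy DNA was followed in arthritic mouse ankles given a microRNA. The set holds the genes that load and fire replication origins, form the replicative helicase, build the polymerases and the sliding clamp, supply nucleotides and rebuild chromatin behind the fork. Its members were found by matching their symbols to the Entrez numbers of the deposited matrix. All 41 matched, of 27179 genes in the matrix. Each library came from a whole, skinned ankle of a DBA1 mouse with collagen-induced arthritis, where the immune response to injected collagen turns on the joints. A lipoplex, a lipid carrier of nucleic acid, had been injected into the joint. The control group (n = 3) received an irrelevant microRNA and the mimic group (n = 4) a mimic of miR-17-5p. Both groups were arthritic and injected, so neither is a healthy or untreated joint. The labels used here state neither age nor the time from injection to dissection. Whether each ankle stands for its own animal is not stated either. The p-values then measure the spread among these libraries, part of which may be technical.

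DNA is copied once per cell cycle. In G1 phase the origin recognition complex, Cdc6 and Cdt1 load the ring of Mcm2 to Mcm7 onto origins. In S phase Cdc45 and the GINS complex turn this ring into the active helicase, primase and polymerase alpha start each strand, and polymerases delta and epsilon extend it on the clamp PCNA. Many of these genes are switched on by E2F transcription factors as cells enter S phase. Their transcripts are thus abundant in dividing cells and scarce in resting ones. Several of the products, among them the single-strand binding protein RPA and the clamp loader RFC, also serve DNA repair. The bones of a whole ankle hold marrow, where precursors of blood cells divide.

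The injected microRNA has relatives inside one of the 41 genes. In mouse genome GRCm38, the hairpins of miR-106b and miR-93 lie in intron 13 of Mcm7, on the strand of the gene, and both carry the seed of miR-17-5p (bases 2 to 8, in capitals below). The third microRNA of that intron, miR-25-3p, has another seed. The mature sequences, from RefSeq on GRCm38.p6, are shown because they link the treatment to a gene of the set.
mmu-miR-17-5p: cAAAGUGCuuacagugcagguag
mmu-miR-106b-5p: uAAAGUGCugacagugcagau
mmu-miR-93-5p: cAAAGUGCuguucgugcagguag
mmu-miR-25-3p: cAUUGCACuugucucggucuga
The mature miR-93-5p lies at chr5:138165574-138165596, miR-106b-5p at chr5:138165787-138165807 and miR-25-3p at chr5:138165332-138165353. The miR-17-5p gene lies elsewhere, at chr14:115043684-115043706.

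The 7 libraries held from 27465276 to 31118975 assigned reads, recovered from the deposited FPKM values (fragments scaled by gene length and library size). All 41 members passed the filter of a mean of at least 1 FPKM, so all were tested. Reads per member and library ran from 90 (Orc1) to 2731 (Rrm1). Markers of synovial fibroblasts, cartilage, muscle, macrophages and osteoclasts, all parts of a whole ankle, were above 0 in every library.

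Transcripts of the replication genes stood lower in the mimic ankles than in the control ankles, by a small amount, and with limma 0 of 41 passed after adjustment over all genes. Of the 41, 38 had a lower fitted mean in the mimic group and 3 a higher one (Rpa1, Rpa3 and Gins4), where 51.7% of the 13418 genes tested were lower. The set was chosen with earlier results of these data known. Its members also share an order of libraries, given below, so they are not independent observations. Fold changes are mimic minus control on log2(FPKM + 0.5), from limma, a scale that understates the change of low genes. The median over the 41 genes was -0.20, against -0.0063 over all genes tested, and 13.7% of all genes lay below the members' median. At an adjusted p under 0.05, 0 members and 0% of all genes passed with limma. The lowest adjusted p of a member was 0.173 and the lowest of any gene 0.148. At an unadjusted p under 0.05, 11 of 41 members were lower and 0 higher, beside 10.1% of all genes lower. With limma-voom on the recovered reads 0 members passed an adjusted p under 0.05, and 11 were lower at an unadjusted p under 0.05, beside 10.0% of all genes. In 7 members every mimic library lay below every control library, as in 8.84% of all genes. These 7 were Tk1, Gins2, Gins1, Dut, Rrm1, Chaf1b and Rfc1.

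In bulk tissue, fewer dividing cells and less transcript per cell cannot be told apart.

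**Figure D1:**
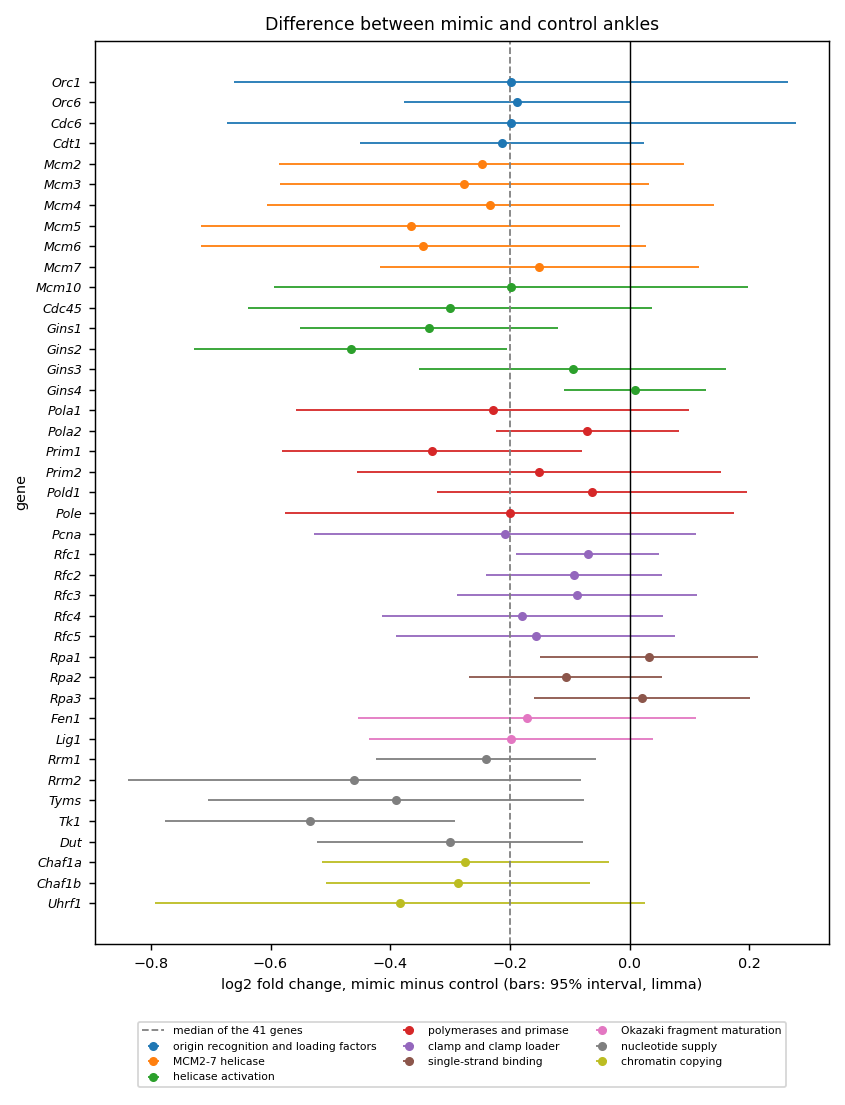
Log2 fold change (mimic minus control, x axis) of each of the 41 genes (y axis, coloured by role), with bars for the 95% interval from limma. The dashed line is the median of the set, -0.20. Wholly below 0 lie 11 intervals, among them those of all 5 nucleotide supply genes. Of all genes, 10.1% were lower at the same level (unadjusted p under 0.05, limma).

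The genes of nucleotide supply showed the largest differences by role, at a median of -0.39 on the log2 scale. All 5 members were lower at an unadjusted p under 0.05 (limma), beside 10.1% of all genes, and 0 passed an adjusted p under 0.05. Tk1 encodes thymidine kinase, which salvages thymidine (GRCm38 chromosome 11, 117815519 to 117826014). Its level was 27.1, 36.9 and 32.5 FPKM in control replicates 2, 3 and 5, and 20.8, 22.2, 23.3 and 21.3 FPKM in mimic replicates 1, 2, 4 and 5. The lowest control thus stood above the highest mimic library. The log2 fold change was -0.53 with an SE of 0.10 (adjusted p = 0.173, limma), or 31.9% lower by the group means. Rrm2, the S-phase subunit of ribonucleotide reductase, which makes deoxyribonucleotides (chromosome 12, 24708254 to 24714146), stood at 21.6, 35.3 and 29.8 FPKM in the controls. In the mimic libraries it stood at 18.5, 19.7, 23.5 and 20.5 FPKM, so that mimic replicate 4 exceeded control replicate 2 and the groups overlapped. Its log2 fold change was -0.46 with an SE of 0.16 (adjusted p = 0.229, limma).

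Rrm1, the large subunit of the same enzyme, differed less in size but without overlap. It measured 20.3, 23.9 and 22.2 FPKM in the controls and 17.0, 18.5, 19.96 and 19.1 FPKM in the mimic libraries. The ratio of Rrm2 to Rrm1 was 1.07, 1.48 and 1.34 in the controls and 1.09, 1.07, 1.18 and 1.07 in the mimic libraries. Control replicate 2 thus had the ratio of the mimic libraries, and controls 3 and 5 lay above all of them. Tyms, thymidylate synthase, stood at 6.81, 8.90 and 9.80 FPKM in the controls and 5.49, 6.13, 7.20 and 6.48 FPKM in the mimic libraries. Dut, which hydrolyses dUTP and so keeps uracil out of DNA, stood at 12.5, 14.5 and 15.7 FPKM against 11.8, 11.3, 12.4 and 10.3 FPKM. For Dut the groups were separated by the narrow gap between control replicate 2 and mimic replicate 4, whereas for Tyms these libraries crossed.

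**Figure D2:**
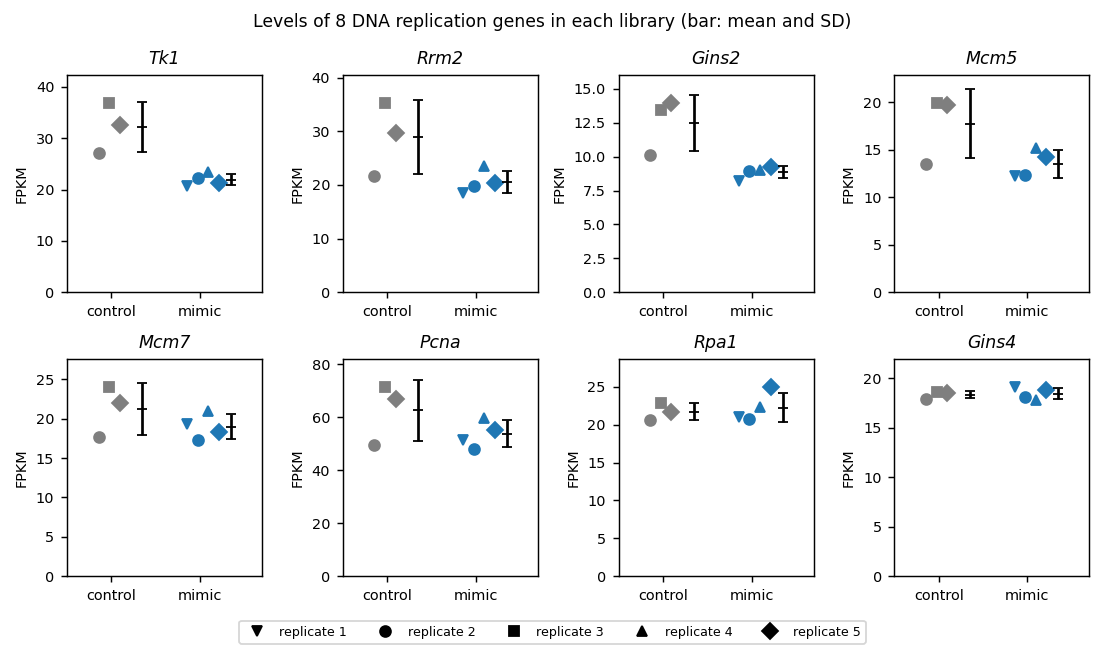
FPKM (y axis, from 0) of 8 genes in each library, control in grey and mimic in blue, with a marker shape per replicate number and a black bar for the mean and SD. Tk1 and Gins2 show no overlap between groups, control replicate 2 lies below the other controls in each panel, and Rpa1 and Gins4 lie at one level throughout.

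All 6 MCM genes, the subunits of the helicase ring, had lower means after the mimic, by a median of -0.26 on the log2 scale, and the groups overlapped in each. Mcm5 showed the largest difference and was the 1 of 6 at an unadjusted p under 0.05, beside 10.1% of all genes lower. It stood at 13.5, 19.9 and 19.7 FPKM in the controls and 12.2, 12.4, 15.2 and 14.2 FPKM in the mimic libraries, a log2 fold change of -0.37 with an SE of 0.15 (adjusted p = 0.270, limma). Mcm6 followed with 17.4, 26.3 and 23.6 FPKM in the controls and 17.2, 15.3, 21.1 and 16.2 FPKM in the mimic libraries. In both genes 2 of the 3 controls exceeded every mimic library and control replicate 2 fell among them.

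Mcm7, the host gene of miR-106b and miR-93 (chromosome 5, 138164589 to 138171862), differed least of the 6. It stood at 17.7, 24.0 and 22.0 FPKM in the controls and 19.4, 17.3, 20.9 and 18.3 FPKM in the mimic libraries, a log2 fold change of -0.15 (SE 0.11) with an interval from -0.42 to 0.12. Those values count exon reads of the host transcript and not the mature microRNAs. Mcm2, Mcm3 and Mcm4 had log2 fold changes of -0.25, -0.28 and -0.23. Per length, the 6 transcripts stood close together, from 12.1 FPKM for Mcm2 to 19.9 FPKM for Mcm7 as means over the libraries. The highest was 1.65 times the lowest, and their proteins join the ring in equal numbers.

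The GINS genes, whose products also assemble in equal numbers, were spread more widely, from 4.00 FPKM for Gins3 to 18.4 FPKM for Gins4, a ratio of 4.61. Gins2 (chromosome 8, 120581266 to 120589075) stood at 10.1, 13.4 and 14.0 FPKM in the controls and at 8.19, 8.98, 9.00 and 9.22 FPKM in the mimic libraries. The groups did not overlap, and its log2 fold change was -0.47 with an SE of 0.11 (adjusted p = 0.174, limma). Gins1 (chromosome 2, 150909594 to 150931280) did not overlap either, at 5.75, 6.65 and 7.12 FPKM against 4.97, 4.57, 5.49 and 5.16 FPKM, a log2 fold change of -0.33 with an SE of 0.092 (adjusted p = 0.179, limma). Gins3 had -0.095 (SE 0.11). Gins4 (chromosome 8, 23226610 to 23237668) stood at 17.9, 18.6 and 18.5 FPKM in the controls and 19.1, 18.1, 17.8 and 18.8 FPKM in the mimic libraries. Its log2 fold change was 0.0094, with an interval from -0.11 to 0.13, and turned to -0.0068 without control replicate 2 and to -0.0073 without mimic replicate 1.

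The other helicase activators had lower means with overlapping groups. Cdc45, the partner of MCM and GINS in the active helicase, stood at 5.53, 7.17 and 7.77 FPKM in the controls and 5.23, 4.59, 6.59 and 5.33 FPKM in the mimic libraries. Mcm10, which is needed to start unwinding, stood at 2.41, 3.78 and 3.64 FPKM against 2.46, 2.46, 3.49 and 2.68 FPKM. In Mcm10 control replicate 2 was below all 4 mimic libraries, and the other controls were above them.

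The 4 origin loading factors spanned a wide range of levels, and 2 of them, Orc1 and Cdc6, were the lowest of the set. Orc1, the largest subunit of the origin recognition complex (chromosome 4, 108579454 to 108614833), was the lowest of the 41, at 1.01, 1.86 and 1.74 FPKM in the controls and 1.10, 0.970, 1.60 and 1.37 FPKM in the mimic libraries. Cdc6, the ATPase that helps to load the MCM ring (chromosome 11, 98907889 to 98923942), came next from below. It measured 1.57, 2.42 and 2.71 FPKM in the controls and 1.71, 1.51, 2.61 and 1.68 FPKM in the mimic libraries. In both, control replicate 2 lay within the range of the mimic libraries, and their log2 fold changes were both -0.20 (SE 0.20). Cdt1, which brings the ring to the origin, had -0.21 (SE 0.10) and Orc6, the smallest subunit, -0.19 (SE 0.081). No member of this role reached an unadjusted p under 0.05, where 10.1% of all genes were lower at that level.

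Among polymerases and primase, 1 of 6 was lower at an unadjusted p under 0.05, beside 10.1% of all genes. This was Prim1, the catalytic primase subunit that makes the RNA primer. It stood at 8.84, 11.1 and 11.3 FPKM in the controls and 7.89, 7.65, 9.32 and 7.73 FPKM in the mimic libraries, a log2 fold change of -0.33 with an SE of 0.11 (adjusted p = 0.214, limma). Mimic replicate 4 was the single mimic library above a control. Its partner Prim2 had -0.15, and the polymerase alpha subunits Pola1 (catalytic) and Pola2 (accessory) had -0.23 and -0.071. Pole and Pold1, the catalytic subunits of the leading and lagging strand polymerases, had -0.20 and -0.063. That of Pold1 turned to 0.043 with the muscle covariate described below and to 0.016 without control replicate 5. Pola1 was the scarcest of its complex at 3.05 FPKM and Prim1 the most abundant at 9.11 FPKM.

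The clamp gene Pcna was the most abundant of the 41 (chromosome 2, 132249286 to 132253180). It stood at 49.6, 71.5 and 67.1 FPKM in the controls and 51.6, 48.1, 59.9 and 55.4 FPKM in the mimic libraries, a log2 fold change of -0.21 (SE 0.14). Control replicates 3 and 5 exceeded every mimic library, while control replicate 2 exceeded mimic replicate 2 alone. The clamp loader genes had log2 fold changes from -0.18 (Rfc4) to -0.070 (Rfc1). Rfc2, a small loader subunit (chromosome 5, 134582690 to 134598328), was second in level among the 41, at 34.9, 33.9 and 38.2 FPKM in the controls. In the mimic libraries it measured 35.4, 32.6, 33.1 and 32.4 FPKM, overlapping the controls. Rfc1, the large subunit, had no overlap, but the gap was small: 12.3 to 12.9 FPKM in the controls and 11.4 to 12.2 FPKM in the mimic libraries.

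The 3 RPA genes, whose products coat single-stranded DNA, had a median log2 fold change of 0.021. Rpa1 (chromosome 11, 75300259 to 75348383) stood at 20.6, 22.8 and 21.7 FPKM in the controls and 21.0, 20.7, 22.3 and 25.0 FPKM in the mimic libraries. Rpa3 (chromosome 6, 8255936 to 8259141) stood at 17.6, 15.7 and 18.8 FPKM against 17.6, 17.7, 18.7 and 16.4 FPKM. The groups overlapped in both. Their log2 fold changes were 0.032, with an interval from -0.15 to 0.22, and 0.021, with an interval from -0.16 to 0.20. Both changed sign in other settings, Rpa1 to -0.0034 without control replicate 2 and Rpa3 to -0.048 without control replicate 3. Rpa2 had -0.11 (SE 0.069). Reads of Rpa1 are uncertain, since 20.1% of its exon bases are shared with a gene model on the other strand and the strand setting is not given. The same holds for Rrm2 (21.3%), Mcm2 (15.1%), Rfc4 (13.2%), Gins2 (11.4%), Tk1 (6.43%) and Lig1 (3.30%).

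Fen1, the flap nuclease, and Lig1, the ligase that joins Okazaki fragments, differed by -0.17 (SE 0.12) and -0.20 (SE 0.10) on the log2 scale. Lig1 stood at 10.6, 13.8 and 12.8 FPKM in the controls and 10.2, 10.4, 11.96 and 10.3 FPKM in the mimic libraries, where mimic replicate 4 was above control replicate 2. The chaperone of new histones, CAF-1, was represented by Chaf1a and Chaf1b, at -0.27 (SE 0.10) and -0.29 (SE 0.094). Chaf1b stood at 7.47, 9.42 and 9.33 FPKM in the controls and 7.32, 6.85, 7.45 and 6.55 FPKM in the mimic libraries, which just failed to meet. Uhrf1, which directs DNA methylation to new strands, stood at 10.4, 15.4 and 15.5 FPKM against 9.12, 8.82, 12.6 and 10.8 FPKM. Its log2 fold change of -0.38 with an SE of 0.17 (adjusted p = 0.306, limma) was among the larger ones, but mimic replicate 4 exceeded control replicate 2.

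**Figure D3:**
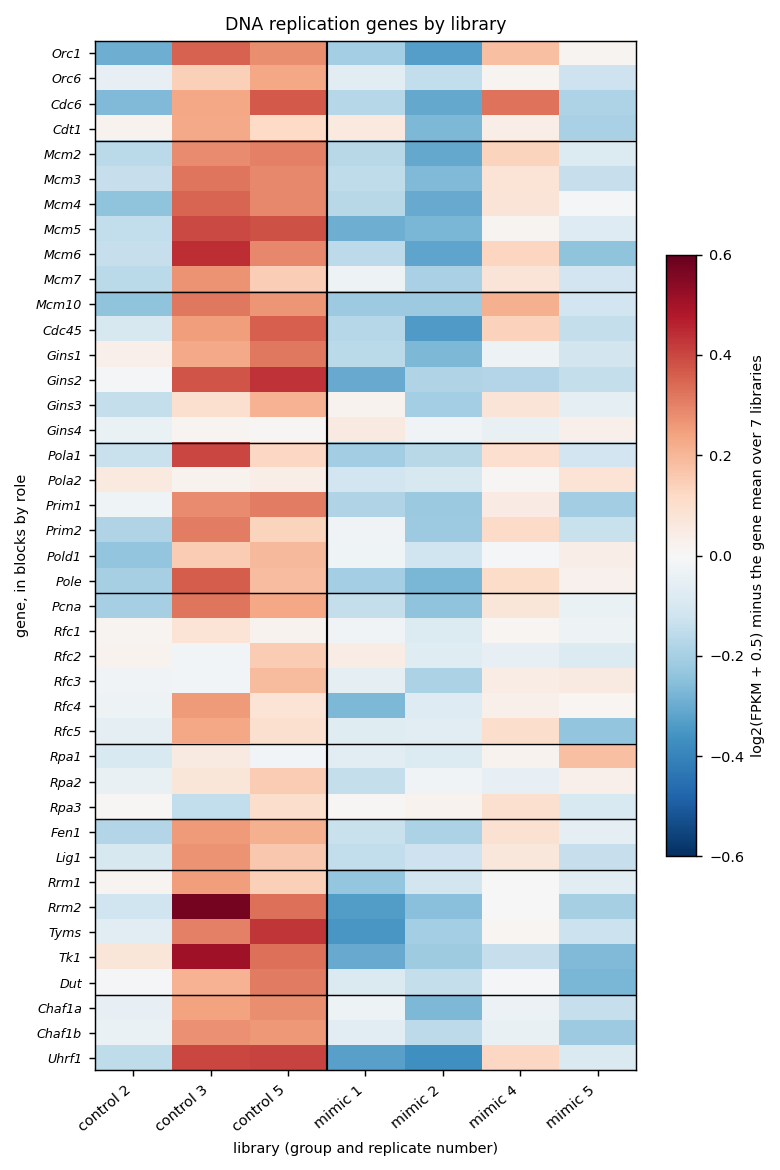
Log2(FPKM + 0.5) minus the gene's mean over the 7 libraries, for the 41 genes in rows (blocks by role, top to bottom as in the text on roles) and the libraries in columns. Control replicates 3 and 5 are red in nearly every row, control replicate 2 is mostly blue and mimic replicate 4 is the palest or reddest of the mimic columns, while the rows of Gins4, Pola2, Rfc1 and Rfc2 are among the pale ones.

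The members shared an order of libraries. Control replicate 2 was the lowest control in 38 of 41 members, where this held for 37.3% of all genes tested. Mimic replicate 4 was the highest mimic library in 31 of 41, beside 27.4% of all genes, and mimic replicate 2 in 0, beside 16.3%. Mimic replicate 2 was the lowest in 24, for which the share of all genes was not counted. Control replicates 3 and 5 both exceeded every mimic library in 33 of 41, beside 22.1% of all genes. Control replicate 2 lay below mimic replicate 4 in 30 and below the mimic mean in 20, with the shares of all genes also not counted. The median member stood at -0.090 log2 units from its own mean in control replicate 2, 0.26 in control replicate 3 and 0.23 in control replicate 5. In mimic replicates 1, 2, 4 and 5 it stood at -0.15, -0.20, 0.045 and -0.11. Summed over the 41 genes, the level was 512.5, 649.1 and 634.1 FPKM in the controls and 495.7, 477.5, 555.1 and 509.8 FPKM in the mimic libraries.

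The result for the set moved with control replicate 2. Without that library, 40 of 41 members had a lower mean, the median was -0.36, and 27 were lower at an unadjusted p under 0.05, beside 15.3% of all genes. With p adjusted over all genes by limma, 3 of 41 then passed. Gins2 fell by 0.60 on the log2 scale (SE 0.068, adjusted p = 0.0288), Tk1 fell by 0.65 (SE 0.078, adjusted p = 0.0302) and Rrm2 fell by 0.65 (SE 0.11, adjusted p = 0.0472). In that setting 1.51% of all genes were lower at an adjusted p under 0.05. The reads of Gins2, Tk1 and Rrm2 carry the strand uncertainty given above, with 11.4%, 6.43% and 21.3% of their exon bases shared. Mcm5 and Chaf1b came next, both with a limma adjusted p of 0.0502. Leaving out a library other than this one gave 0 members at an adjusted p under 0.05, and the median ran from -0.27 without mimic replicate 4 to -0.12 without control replicate 3. The count at an unadjusted p under 0.05 was 4 without control replicate 3, beside 6.75% of all genes, and 4 without control replicate 5, beside 4.82%. It was 17 without mimic replicate 4, beside 9.53%. Without mimic replicates 1, 2 and 5 in turn it was 9, 8 and 9, beside 9.49%, 6.51% and 6.71%.

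**Figure D4:**
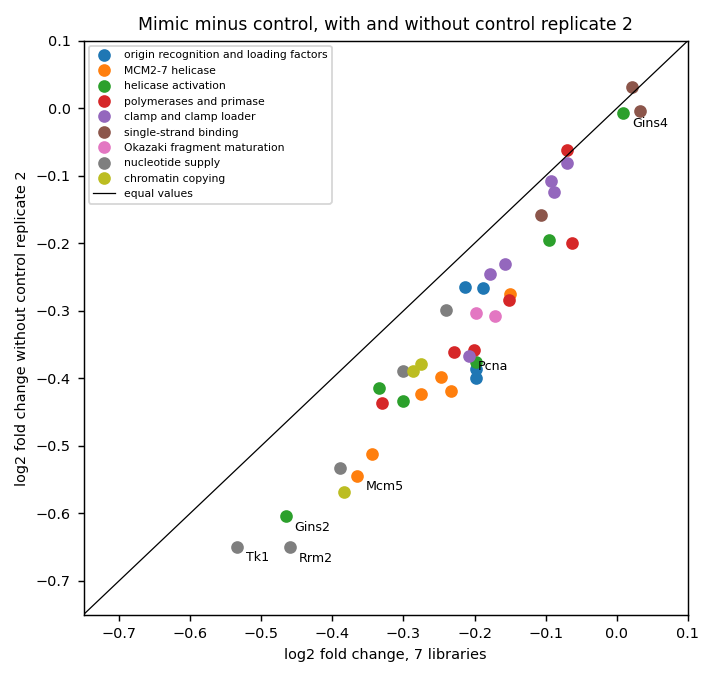
Log2 fold change of each of the 41 genes with all 7 libraries (x axis) and without control replicate 2 (y axis), coloured by role, with a line of equal values. All points but those of Pola2 and Rpa3 lie below the line, with Tk1 and Rrm2 at -0.65 and Gins2 at -0.60 on the y axis, and those of Rpa1 and Gins4 lie near 0 on both axes.

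Control replicate 2 held more muscle transcript than the other controls. The summed level of 10 skeletal muscle markers was 7421 FPKM there, 3578 FPKM in control replicate 3 and 1239 FPKM in control replicate 5. It ran from 2942 to 11196 FPKM in the mimic libraries, and all 10 markers had a higher fitted mean in the mimic group. With the mean of that list as a covariate the median of the replication genes was -0.12 and 5 members were lower at an unadjusted p under 0.05, beside 6.03% of all genes. Control replicate 2 was also the lowest control in mature neutrophil markers, which come from cells that no longer divide. Their sum was 2914 FPKM there, 5643 FPKM in control replicate 3 and 5357 FPKM in control replicate 5. It ran from 1219 to 3013 FPKM in the mimic libraries. Lower means were found in 8 of 8, at a median log2 fold change of -1.08. At an unadjusted p under 0.05 (limma), 7 of 8 were lower, beside 10.1% of all genes, and 0 passed an adjusted p under 0.05. The groups did not overlap in 3 of 8, with the mimic lower, as in 8.84% of all genes.

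Markers of marrow precursors, which divide, overlapped between groups in every gene, and with limma 0 passed an adjusted p under 0.05. At an unadjusted p under 0.05, 1 of 10 erythroid markers was higher, beside 1003 of the 13418 genes tested. Of the granulocyte precursor markers 0 of 10 were lower, beside 10.1% of all genes. All 10 erythroid precursor markers had a higher mean in the mimic ankles (sums from 54.5 to 210.5 FPKM in the controls and from 82.7 to 575.2 FPKM in the mimic libraries). The globin gene Hba-a1 made up most of these sums. It stood at 190.0 FPKM in control replicate 2 and 492.5 FPKM in mimic replicate 4, the libraries with the highest sums of their groups. All 10 granulocyte precursor markers had a lower one. Their sums were 365.5, 1094 and 269.1 FPKM in control replicates 2, 3 and 5. In mimic replicates 1, 2, 4 and 5 they were 618.0, 390.1, 689.9 and 188.8 FPKM. Control replicate 3 alone stood above every mimic library, and control replicates 2 and 5 lay below mimic replicates 1, 2 and 4. As covariates these lists gave medians of -0.27 and -0.18, with 11 and 10 members lower at an unadjusted p under 0.05, beside 8.11% and 8.65% of all genes.

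The B cell precursor markers summed to between 19.6 and 25.7 FPKM in the controls and between 17.3 and 47.5 FPKM in the mimic libraries, with higher means in the mimic group for all 7 tested. Of its 10 markers, Vpreb2, Rag1 and Rag2 had means under 1 FPKM. Cartilage markers had higher means in the mimic group in 7 of 8, at a median log2 fold change of 0.44. At an unadjusted p under 0.05, 3 of 8 were higher, beside 1003 of the 13418 genes tested, and 0 passed an adjusted p under 0.05 (limma). Col2a1, the main cartilage collagen, and Snorc did not overlap between groups, with the mimic higher, as in 869 of the 13418 genes tested. The list summed to between 732 and 878 FPKM in the controls and between 836 and 1003 FPKM in the mimic libraries. Osteoclast markers had lower means in 7 of 7 tested, summing to between 2601 and 2748 FPKM in the controls and between 2068 and 2279 FPKM in the mimic libraries. All 7 were lower at an unadjusted p under 0.05 (limma), beside 10.1% of all genes, and 0 passed an adjusted p under 0.05. In all 7 every mimic library lay below every control library, as in 8.84% of all genes. Calcr had a mean under 1 FPKM and was not tested. No marker of these lists was at 0 in any library. The part of the B cell precursor, neutrophil, cartilage and osteoclast lists in the result was not tested.

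A further list, chosen like the others with earlier results of these data known, holds 41 replication genes outside the set. In the mimic group 34 of them stood lower and 7 higher, at a median of -0.15 on the log2 scale. At an adjusted p under 0.05 the count was 0, and at an unadjusted p under 0.05, 10 were lower and 0 higher, beside 10.1% of all genes lower. The 10 became 22 without control replicate 2, beside 15.3% of all genes, and 12 without mimic replicate 4, beside 9.53%. Without any 1 of the other libraries they became 4 or 5, beside 4.82% to 9.49% of all genes. With the muscle covariate they became 3, beside 6.03%. Dbf4, the activating subunit of the kinase that fires origins, stood at 9.41 ± 1.23 FPKM (SD, n = 3) in the controls and 6.94 ± 0.78 FPKM (SD, n = 4) in the mimic ankles. Gmnn, the inhibitor of Cdt1, stood at 14.9 ± 1.5 and 11.8 ± 0.98 FPKM, and neither overlapped between groups. Asf1b, a histone chaperone, had -0.40 (SE 0.13). Dnmt1, which copies DNA methylation with Uhrf1, had a log2 fold change of -0.25 (SE 0.12). Orc3, Orc4 and Orc5, named here after their values were seen, had 0.0067, 0.0083 and 0.060. Pclaf, a partner of PCNA, had -0.48 (SE 0.18) and was the 1 gene of this list at an adjusted p under 0.05 without control replicate 2 (adjusted p = 0.0302, limma).

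Of 12 genes that control the passage from G1 to S phase, 11 stood lower in the mimic group, at a median of -0.16. The 1 gene at an unadjusted p under 0.05, beside 10.1% of all genes lower, was Ccna2 (cyclin A2), at -0.40 (SE 0.14). Cdkn1a, an inhibitor of cyclin-dependent kinases, stood at 48.5 ± 0.59 and 41.6 ± 5.93 FPKM. All 20 mitosis genes had a lower mean, at a median of -0.47, with 17 at an unadjusted p under 0.05, beside 10.1% of all genes lower, and 0 at an adjusted p under 0.05. The 17 became 13 without control replicate 3, beside 6.75% of all genes, and 13 with the muscle covariate, beside 6.03%. With the replicate block described below they became 4, beside 4.96%. Without control replicate 2 all 20 were at an unadjusted p under 0.05, beside 15.3% of all genes lower. Their median was then -0.65 and 8 of 20 passed after adjustment, beside 1.51% of all genes lower. The smallest p-values were those of Cdk1, the kinase that starts mitosis (-0.58, SE 0.11), Cdc20, an activator of the anaphase-promoting complex (-0.56, SE 0.12), and Tpx2, a spindle assembly factor (-0.53, SE 0.12). Mki67, a marker of dividing cells, stood at 16.2 ± 3.82 and 12.3 ± 1.74 FPKM (unadjusted p = 0.061, limma). Top2a, which untangles copied DNA, stood at 27.9 ± 6.33 and 18.9 ± 2.16 FPKM. The groups overlapped in both Mki67 and Top2a. In 11 of the 20 mitosis genes every mimic library lay below every control library, as in 8.84% of all genes. The difference between the replication and mitosis lists was not tested.

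The promoters of the set were searched for motifs known from cell cycle genes, in the 250 bases before and 50 bases after the RefSeq start site (GRCm38.p6). A promoter was found for 34 of the 41 genes. Mcm4, Gins1, Gins2, Prim2, Pole, Rfc2 and Gins4 had no entry. The E2F motif was searched as TTTCCCGC, TTTCGCGC, TTTGCCGC and TTTGGCGC on both strands, and 13 of 34 members (38.2%) held at least 1, against 4.54% of 10365 tested genes with a promoter. The window around 1 match of each of these 13 genes is shown 5′ to 3′ on the strand of the motif, with the motif in capitals, because the octamer is what these promoters share.
Mcm3: cttcccaagtTTTCCCGCcacggaagtt
Mcm5: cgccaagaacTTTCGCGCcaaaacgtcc
Mcm6: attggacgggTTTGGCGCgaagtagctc
Mcm7: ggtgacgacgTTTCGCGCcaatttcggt
Orc1: ggagaaaactTTTCGCGCcactaaccga
Cdc6: ccccaggcgaTTTCCCGCtctccaccgg
Cdt1: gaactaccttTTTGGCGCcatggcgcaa
Gins3: tcaaactcgcTTTCCCGCgccgcactcg
Pola1: cgggagtgcaTTTGGCGCcctgtgatga
Pold1: gctTTTCCCGCcacaagatac
Rfc3: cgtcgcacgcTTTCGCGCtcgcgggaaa
Lig1: gccacacagaTTTCGCGCgcactttggc
Uhrf1: ccgagtcgggTTTCGCGCgcccaggcgt
By role, the octamer was in 3 of 4 origin loading genes and 4 of 5 MCM genes with a promoter, and in 0 of 5 nucleotide supply genes. More than 1 match was found in 5 of the 13. The promoter of Mcm6 (chr1:128359656-128359955, minus strand) held 3, of which 2 overlap on opposite strands and appear as 1 run of capitals.
Mcm6 promoter: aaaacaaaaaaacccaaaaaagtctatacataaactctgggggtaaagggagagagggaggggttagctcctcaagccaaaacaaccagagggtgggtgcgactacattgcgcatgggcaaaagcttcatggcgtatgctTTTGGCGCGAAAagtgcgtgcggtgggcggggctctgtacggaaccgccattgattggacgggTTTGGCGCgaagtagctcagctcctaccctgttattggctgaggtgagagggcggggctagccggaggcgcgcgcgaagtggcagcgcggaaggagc

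The 13 members with a match had a median log2 fold change of -0.20, from -0.38 (Uhrf1) to -0.063 (Pold1), and the 21 without a match had -0.21, from -0.53 (Tk1) to 0.032 (Rpa1). A match is a description of letters and not of binding. The CCAAT box (CCAAT, both strands) was found in 22 of 34 members (64.7%) and in 42.4% of tested genes. The CHR element, searched as TTTGAA on both strands, was found in 4 of 34 members (11.8%) and in 14.2% of tested genes. Mitosis genes held the E2F octamers in 1 of 17, CCAAT in 14 of 17 and TTTGAA in 11 of 17. The further replication genes held the octamers in 10 of 33.

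**Figure D5:**
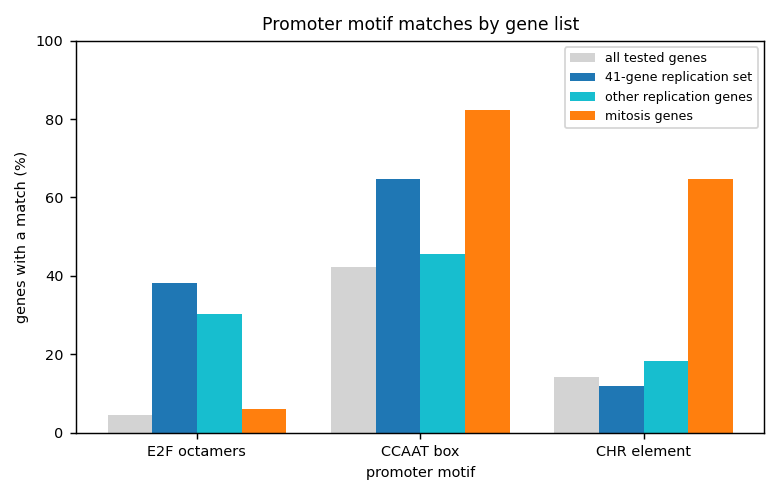
Share of genes (y axis, percent, from 0) with a match to the E2F octamers, the CCAAT box or the CHR element (x axis) in the 300 bases around the start site, for all tested genes, the 41-gene set, the further replication genes and mitosis genes. The replication lists stand highest for E2F octamers (38.2% and 30.3%), and mitosis genes for CCAAT (82.4%) and the CHR element (64.7%).

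Target sites of miR-17-5p were sought as GCACTTTA, GCACTTT or CACTTTA, its seed read backwards in complement, within each gene's longest 3′ UTR (GENCODE M21, GRCm38). Of the 41 members, 6 held one (14.6%), against 21.4% of 12489 tested genes with a UTR. The members' UTRs were shorter, with a median of 568 bases against 1145. The sites of Mcm3, Mcm7 and Rrm2 are shown, with the match in capitals. Mcm3 holds the 8-base form.
Mcm3 site: ccacccccagGCACTTTAgtccaggaag
Mcm7 site: ctcccatgctGCACTTTtttattctgc
Rrm2 site: aataaaattgGCACTTTgcacacacac
The other 3 genes were Gins2, Chaf1a and Rpa2. The 6 genes had a median log2 fold change of -0.28 and the 35 others of -0.20. Over all tested genes the median was -0.0083 with and -0.0084 without a match.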

How the data were processed

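RNA of 7 ankles was sequenced. The deposited matrix gives FPKM for each gene in each library, per the file headers, beside exon coordinates, summed exon length and Entrez numbers. Of 27179 genes, 25275 matched a symbol (RefSeq, GRCm38.p6). The submitters' processing notes list bcl2fastq 2.20, STAR 2.5.2b, Subread, featureCounts and DESeq2 1.14.1 without roles, and mm10 and GRCm38. No source used here gives the annotation release or strand setting. FPKM times length fell on whole multiples of the value of 1 read for 100% of entries (tolerance 0.01), which recovers reads.

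Groups were compared by limma 3.58.1 (R 4.3.3; lmFit, eBayes with trend) on log2(FPKM + 0.5). Genes needed a mean of 1 FPKM or more, p-values were 2-sided, and Benjamini-Hochberg adjustment covered all 13418 genes, at 0.05. The script was tested on simulated data. Alternatives were pseudocounts of 0.1 and 1, no filter or one of 5 FPKM, median-of-ratios scaling, limma-voom on recovered reads, a replicate block, a marker list's mean as covariate (3 lists) and leaving out each library. Both the 41 members and the other lists were chosen with earlier results of these data known. Library values are printed for the members of smallest p in each direction, of highest and lowest level, and for Mcm7, Pcna and Rrm2, and others were added after their values were seen. From other lists the genes of smallest p and a few fixed genes are named. Python 3.11.15, pandas 2.3.3 and matplotlib 3.10.9 were used.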

Additional observations from a re-analysis of the deposited data

Results flagged for a closer look

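In 2 of the 41 genes the highest of the 4 mimic libraries stood far from the other 3 for the range of the group. Chance puts a library, the highest or the lowest, this far out in about 5% of groups. The 2 of 41 found here are close to that share. Prim1 was at 9.32 FPKM in mimic replicate 4 and between 7.65 and 7.89 FPKM in the others. Lig1 was at 11.96 FPKM in mimic replicate 4 and between 10.2 and 10.4 FPKM in the others.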

How the results depend on the processing

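Over 17 alternatives the median log2 fold change of the 41 genes stayed below 0, from -0.36 to -0.12. When libraries were left out, the number of all genes passing ran from 0 to 318, that of members passing from 0 to 3 and that of members lower at an unadjusted p under 0.05 from 4 to 27, each with its highest value without control replicate 2. The median over the members ran from -0.36 to -0.12 and that over the other replication genes from -0.22 to -0.12. With no filter on low values 1 gene passed, no member. With the replicate block 3 members were lower at an unadjusted p under 0.05, beside 4.96% of all genes, and the median was -0.17. The block gave 3 of the other 41 replication genes and 4 of 20 mitosis genes, beside the same 4.96%. With the muscle covariate 5 members were lower, beside 6.03% of all genes. The block rests on the numbers 2 and 5, which both groups hold. Deviations from the group means correlated across genes by 0.535 for number 2 and by -0.435 for number 5, so the numbers were not taken to pair the samples. Of 691 member values under alternatives, 677 kept their direction and call, 3 passed and 11 changed sign, in 5 genes. Gins3 turned to 0.029 and Pold1 to 0.043 with the muscle covariate, and Rpa3 to -0.092 with the block and -0.0022 with the erythroid covariate. With libraries left out, Gins4 ran from -0.0073 to 0.026, Pold1 from -0.20 to 0.016, Rpa1 from -0.023 to 0.068 and Rpa3 from -0.048 to 0.079. The cause of these changes was not tested. Median-of-ratios scaling moved the median of all genes from -0.0063 to -0.0067. Depth limits Orc1 and Gins1 most, with as few as 90 and 165 reads in a library.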

Other observations

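Mir17hg, the annotated host gene of the miR-17 cluster, stood at 3.00 ± 1.11 FPKM in the control ankles and 2.65 ± 0.47 FPKM in the mimic ankles, with overlapping groups and a log2 fold change of -0.11 (SE 0.24). The counted gene model spans chromosome 14, 115044390 to 115046728. It does not hold miR-17-5p, which lies at 115043684 to 115043706. Among the 41 genes Pola2 had the smallest SD between controls relative to its mean, at 8.99 ± 0.13 FPKM, and 8.55 ± 0.58 FPKM in the mimic ankles.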
